A study of Mus musculus with 6 samples.

Results

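Endothelial and angiogenesis genes were examined in RNA-seq of orthotopic HCA-1 tumors. They comprised 37 genes, chosen by symbol, of the 55536 genes in the count table, namely 16 genes of endothelial cells in general, 6 markers of the liver sinusoidal endothelium, 11 genes of growth factors, their receptors, Notch signaling and Plvap, and 4 genes of inducible adhesion molecules. HCA-1 is a murine hepatocellular carcinoma (HCC) line, and its cells had been injected beneath the liver capsule of male C3H mice (C3H/HeNCrNarl in the methods of the study) aged 6 to 8 weeks. Tumors labeled as untreated controls (numbered 5, 6 and 7) were compared with tumors of mice given GOx-DOX-LGP (numbered 1, 2 and 5), a lipid-gelatin-protamine nanogel that carries glucose oxidase (GOx) in its core and doxorubicin (DOX) in its shell. The labels place its intravenous doses on days 18, 19 and 20 and the transcriptome analysis after 3 h of circulation on day 17, whereas the methods of the study place the harvest of the tumors after the last dose. All tumors came from the same cell line in liver, no group received an empty nanogel, and tissue of the host liver can be sampled together with such a tumor.

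Blood vessels grow when factors of the VEGF family bind receptor tyrosine kinases of endothelial cells, Kdr and Flt1 in blood vessels and Flt4 above all in lymphatic vessels and liver sinusoids. Angiopoietins signal through Tek, and Dll4 and Notch1 restrain the number of sprouts. The sinusoids of the liver are lined by a fenestrated, scavenging endothelium that carries the receptors Stab1, Stab2, Lyve1, Clec4g and Fcgr2b.

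Library totals lay between 15529940 and 18401178 counts. Levels are given as CPM, counts per 1e6 after scaling by TMM, and fold changes are GOx-DOX-LGP minus control on the log2 scale with their standard error (SE). The TMM factors were 1.24, 0.759 and 0.569 in controls 5, 6 and 7, and between 1.21 and 1.24 in GOx-DOX-LGP tumors. The order of libraries and the overlap of groups are those of CPM and can differ under library totals. Control 5 stood apart from controls 6 and 7. Alb, the albumin gene of hepatocytes, measured 353 CPM in control 5 against 73804 and 128244 CPM in controls 6 and 7, and between 733 and 1893 CPM in the treated tumors. Across the 15374 genes that passed the filter on low counts, Pearson's r of log2 CPM was 0.730 and 0.659 between control 5 and controls 6 and 7, and between 0.966 and 0.975 between control 5 and the treated tumors, a description across genes. Results are therefore given with all libraries and, where they rest on it, without control 5. With scaling by library totals in place of TMM the median fold change of all genes moved from 0.02 to 0.51, so values under that scaling are given relative to this median. As to the endothelial label, Pecam1, Cdh5, Tie1, Esam and Erg were detected in every library. In bulk RNA, fewer cells of a type and less RNA per cell cannot be told apart.

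The promoters of 4 of the genes that were highest in controls 6 and 7 are shown as examples, beside that of Stab1. Stab1, the paralog of Stab2, did not share that pattern in full. The promoters are RefSeq sequences of GRCm38.p6, from 250 bases before to 50 bases after the start, 5′ to 3′ on the strand of the gene. Capitals mark, on either strand, the letters CAGGAAG for an ETS motif, those of AGATAA for a GATA motif, and those of ACAAT for a SOX motif.
Stab2, chr10:87007893-87008192, minus strand: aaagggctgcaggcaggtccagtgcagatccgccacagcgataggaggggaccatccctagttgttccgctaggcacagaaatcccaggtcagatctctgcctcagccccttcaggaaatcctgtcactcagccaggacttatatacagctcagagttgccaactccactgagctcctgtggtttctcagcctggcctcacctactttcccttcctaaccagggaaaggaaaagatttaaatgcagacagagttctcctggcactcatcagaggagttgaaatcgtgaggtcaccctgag
Clec4g, chr8:3720602-3720901, minus strand: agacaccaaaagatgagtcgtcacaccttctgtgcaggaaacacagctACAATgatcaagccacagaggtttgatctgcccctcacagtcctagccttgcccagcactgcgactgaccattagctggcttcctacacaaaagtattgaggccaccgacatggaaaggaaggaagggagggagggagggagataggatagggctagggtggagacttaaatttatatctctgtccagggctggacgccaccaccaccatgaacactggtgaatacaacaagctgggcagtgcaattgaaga
Tek, chr4:94739039-94739338, plus strand: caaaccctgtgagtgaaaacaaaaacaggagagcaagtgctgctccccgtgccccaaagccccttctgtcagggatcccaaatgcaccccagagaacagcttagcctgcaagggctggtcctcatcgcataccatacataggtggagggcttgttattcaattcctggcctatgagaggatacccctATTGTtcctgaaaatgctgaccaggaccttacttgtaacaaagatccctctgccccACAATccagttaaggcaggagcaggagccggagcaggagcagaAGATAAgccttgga
Robo4, chr9:37401722-37402021, plus strand: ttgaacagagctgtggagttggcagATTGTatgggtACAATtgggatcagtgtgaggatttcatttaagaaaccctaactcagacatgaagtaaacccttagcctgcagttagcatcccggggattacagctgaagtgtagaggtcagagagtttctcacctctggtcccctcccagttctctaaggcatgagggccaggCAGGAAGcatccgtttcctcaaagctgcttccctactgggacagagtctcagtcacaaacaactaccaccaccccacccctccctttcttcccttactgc
Stab1, chr14:31168592-31168891, minus strand: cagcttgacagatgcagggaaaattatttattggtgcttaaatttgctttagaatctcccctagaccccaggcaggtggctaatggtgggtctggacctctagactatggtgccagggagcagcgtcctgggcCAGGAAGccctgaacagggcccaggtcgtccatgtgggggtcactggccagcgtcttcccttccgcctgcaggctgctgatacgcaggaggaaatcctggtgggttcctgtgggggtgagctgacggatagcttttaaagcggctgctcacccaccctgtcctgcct
The ETS letters occurred in Robo4 and Stab1, the GATA letters in Tek, and the SOX letters in Clec4g, Tek and Robo4, while Stab2 held none of them. Other genes highest in controls 6 and 7 had promoters that are not shown. Those of Kdr, Tie1, Eng, Cldn5, Flt4, Nrp1 and Dll4 held none of these letters. Some entries of Egfl7 held the ETS letters, and an entry of Erg held the letters of every motif. RefSeq entries were matched for 25 of the 37 genes, with 30 promoters. The ETS letters were found in 23.3% of these and in 13.3% of all 32851 promoters of the same length. The shares were 6.67% and 11.2% for the GATA letters, and 20% and 31% for the SOX letters. A match of letters is a description and not a binding site.

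The comparison asks how treatment with the nanogel relates to vascular gene expression. Markers of liver sinusoids such as Stab2 and several endothelial receptors were far higher in controls 6 and 7 than in the other 4 libraries. After TMM scaling the level of Pecam1 was nearly the same in all 6, whereas its counts before scaling were lowest in controls 6 and 7. In edgeR with Benjamini-Hochberg adjustment, 0 of 36 genes tested had an adjusted p under 0.05 (0% of all genes tested). At an unadjusted p under 0.05, 14 genes were lower and 0 higher after treatment, where 14.6% and 2.87% of all genes were lower and higher. The groups did not overlap for 12 genes that were lower and 3 that were higher, against 8.31% and 8.87% of all genes. DESeq2 gave 10 genes lower and 0 higher at an adjusted p under 0.05, where the shares of all genes were 9.54% and 0.994%. Without control 5, edgeR gave 17 genes lower and 5 higher of the 36. That fit was filtered anew and tested 16249 genes, of which it called 25.5% lower and 22.2% higher. With sample quality weights, limma voom gave 22 genes lower and 5 higher, where it called 30.9% and 29.2% of all genes. Controls 6 and 7 were the 2 highest libraries for 21 of the 36 genes, a description chosen after the values were seen, and 32.9% of all genes shared it. They were the 2 lowest for 8 genes, as they were for 35.4% of all genes.

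**Figure D1:**
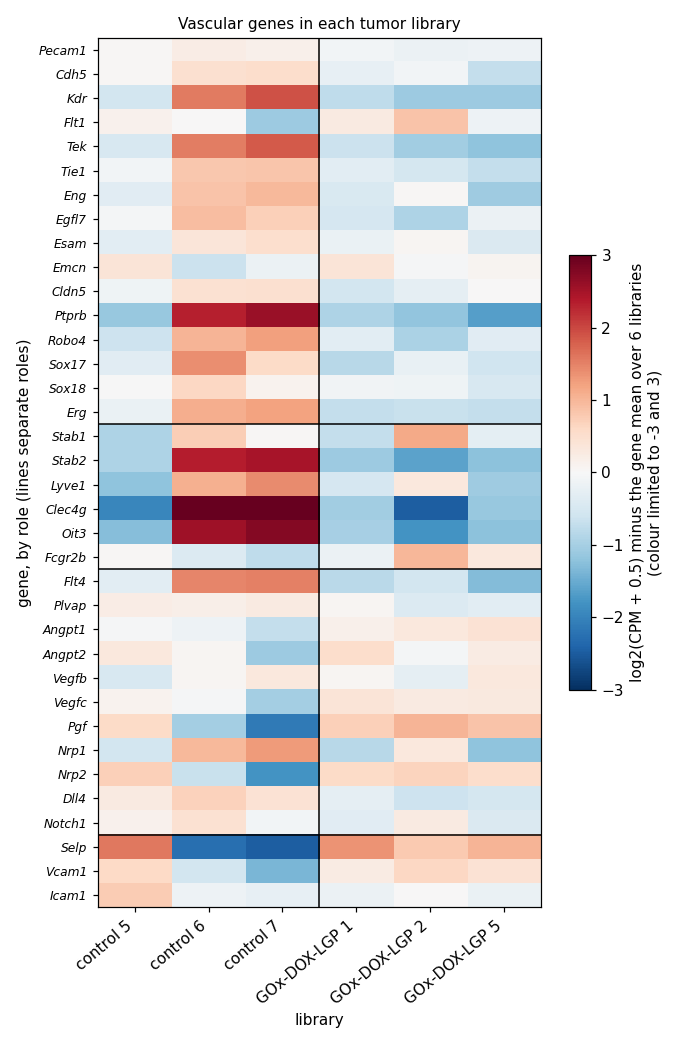
Level of each of the 36 genes tested in each library, as log2(CPM + 0.5) minus the mean of the gene over the 6 libraries, with color limited to -3 and 3. Controls 6 and 7 hold the strongest red for genes such as Clec4g, Oit3, Stab2 and Ptprb and the strongest blue for Selp.

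The sinusoidal markers did not all share 1 pattern. Stab2, Clec4g and Oit3 were far more abundant in controls 6 and 7 than in every other library. Stab1, Lyve1 and Fcgr2b, which macrophages, B cells or lymphatic vessels can also express, varied less. Lyve1 was still highest in controls 6 and 7, whereas Stab1 and Fcgr2b were not. Stab2 (ENSMUSG00000035459, chromosome 10, 86841198 to 87008025 on GRCm38), the scavenger receptor that clears hyaluronan from blood, measured 8.51, 86.8 and 93.9 CPM in controls 5, 6 and 7. In GOx-DOX-LGP tumors 1, 2 and 5 it measured 7.51, 5.05 and 6.76 CPM. The groups did not overlap, but control 5 lay just above the treated tumors (two-sided exact permutation p = 0.1, the lowest value possible with 3 libraries in each group). The fold change gave no call in edgeR but passed in DESeq2 (log2 fold change -3.29, SE 0.86, adjusted p 0.247 in edgeR and 0.00275 in DESeq2). Without control 5 it was -3.78, with an edgeR adjusted p of 5.01e-05.

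Clec4g (ENSMUSG00000074491, chromosome 8, 3707064 to 3720651), a lectin of the sinusoidal endothelium that binds glycans, showed the widest ratio of highest to lowest library among the 37 genes. It measured 0.834, 46.0 and 55.5 CPM in controls 5, 6 and 7, against 2.03, 0.441 and 1.87 CPM in treated tumors 1, 2 and 5. Control 5 thus lay between the treated tumors (two-sided exact permutation p = 0.3). These levels rested on 19, 543 and 516 counts in controls and on 41, 9 and 36 counts in treated tumors. Its call again differed between the tools (log2 fold change -4.55, SE 1.45, adjusted p 0.247 in edgeR and 0.00488 in DESeq2). Oit3 (ENSMUSG00000009654, chromosome 10, 59422958 to 59441778), a secreted protein used as a marker of this endothelium, measured 2.90, 47.0 and 54.3 CPM in controls against 3.61, 1.86 and 3.02 CPM after treatment. Control 5 again lay within the range of the treated tumors (log2 fold change -3.61, SE 1.03, adjusted p 0.247 in edgeR and 0.00419 in DESeq2). Without control 5 the fold changes of Clec4g and Oit3 were -5.10 and -4.13, with edgeR adjusted p of 0.000260 and 7.23e-05.

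Lyve1, a hyaluronan receptor of sinusoidal and lymphatic endothelium, measured 8.60, 43.4 and 56.0 CPM in controls 5, 6 and 7. Treated tumors 1, 2 and 5 had 14.3, 26.0 and 9.57 CPM, all above control 5 and below controls 6 and 7 (log2 fold change -1.11, SE 0.72, edgeR adjusted p 0.429). Without control 5 the fold change of Lyve1 was -1.55 with an edgeR adjusted p of 0.0159. Stab1, a scavenger receptor of sinusoidal cells and of macrophages, had its highest level in GOx-DOX-LGP tumor 2. It measured 39.5, 125 and 76.5 CPM in controls against 45.7, 165 and 61.5 CPM, so that the groups overlapped almost throughout (log2 fold change 0.18, SE 0.62, edgeR adjusted p 0.876). That fold change was -0.56 without GOx-DOX-LGP tumor 2 and -0.12 without control 5. Fcgr2b, the inhibitory Fc receptor that also removes immune complexes in sinusoids, measured 195, 144 and 113 CPM in controls against 168, 384 and 240 CPM (log2 fold change 0.81, SE 0.40, edgeR adjusted p 0.339). Without control 5 its fold change was 1.07, with an edgeR adjusted p of 0.0452. Of the stretches of 50 bases in Fcgr2b transcripts, 4.38% also occur in other genes, Fcgr3 among them, so a part of its counts is uncertain.

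Markers of hepatocytes, and most of those of Kupffer cells and stellate cells, moved with these genes. The summed level of 10 hepatocyte markers was 613 CPM in control 5, 110873 and 185014 CPM in controls 6 and 7, and between 1247 and 3198 CPM in treated tumors. For 5 Kupffer cell markers the sums were 28.4, 279 and 286 CPM in controls 5, 6 and 7, with a range of 26.6 to 51.9 CPM in treated tumors. For 6 stellate cell markers they were 161, 549 and 631 CPM and from 96.4 to 312 CPM. The sums of these lists were thus highest in the same libraries as Stab2, Clec4g and Oit3. Controls 6 and 7 were the 2 highest libraries for all 10 hepatocyte markers, as for 32.9% of all genes. They were so for 4 of 5 Kupffer cell and 4 of 6 stellate cell markers. Marco of the Kupffer cell list was highest in GOx-DOX-LGP tumor 5 at 13.4 CPM. Des of the stellate cell list was highest in GOx-DOX-LGP tumor 2 at 19.0 CPM, and Dcn made up most of the stellate cell sum. The sums of 6 macrophage markers were 592, 562 and 335 CPM in controls, against 553, 1247 and 825 CPM in treated tumors. They were highest in GOx-DOX-LGP tumor 2, as for Stab1 and Fcgr2b. Of the macrophage markers, Cd163 was the exception, highest in control 6 at 51.6 CPM against 19.5 CPM in GOx-DOX-LGP tumor 2. The part of these cells in the sinusoidal values was not tested. With the mean log2 CPM of the hepatocyte markers as a covariate, the fold change was -1.15 for Stab2 (edgeR adjusted p 0.397), -0.54 for Clec4g, -0.94 for Oit3 and 0.38 for Lyve1.

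Sinusoidal markers were then set against the 16 general endothelial genes within each library, a difference that hardly depends on the scaling of libraries. The mean log2 CPM of the 6 sinusoidal markers exceeded that of the general genes by 0.021, 1.68 and 1.71 in controls 5, 6 and 7, and by 0.53, 0.62 and 0.72 in treated tumors 1, 2 and 5. The mean was 1.13 ± 0.96 (SD, n = 3) in controls and 0.62 ± 0.097 (SD, n = 3) in treated tumors, a difference of -0.51 that was smaller than the spread among controls. It was -1.07 without control 5, -0.24 without control 6 and -0.22 without control 7. The treated tumors lay between control 5 and the other controls. For Stab2, Clec4g and Oit3 alone the values were -1.88, 1.33 and 1.58 in controls and -1.28, -2.40 and -1.23 in treated tumors, a difference of -1.98. For Stab1, Lyve1 and Fcgr2b alone they were 1.92, 2.02 and 1.83 in controls and 2.33, 3.65 and 2.67 in treated tumors, so that every treated tumor lay above every control and the difference was 0.96. This last split of the list was chosen after the values were seen, and Lyve1 alone had a fold change below 0, at -1.11.

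**Figure D2:**
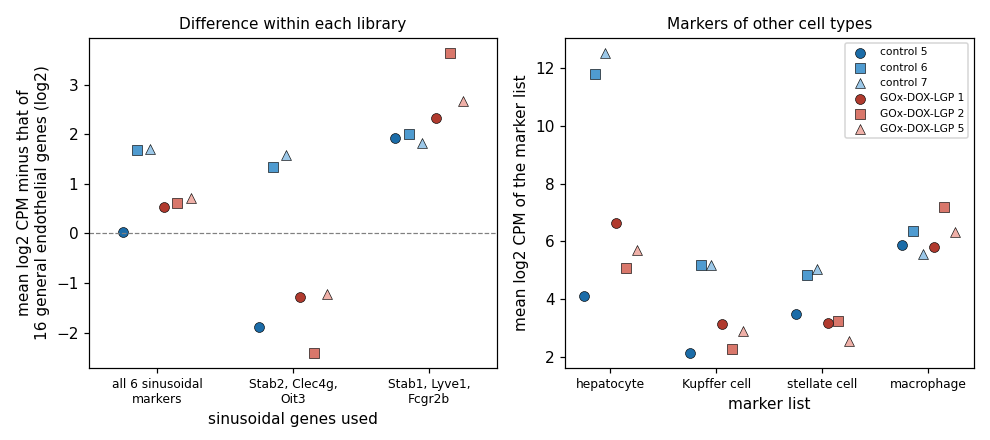
Left, mean log2 CPM of sinusoidal genes minus that of the 16 general endothelial genes in each library, for all 6 markers, for Stab2, Clec4g and Oit3, and for Stab1, Lyve1 and Fcgr2b, and right, mean log2 CPM of 4 marker lists in the same libraries. For Stab2, Clec4g and Oit3, controls 6 and 7 lie at 1.33 and 1.58 and the other 4 libraries between -2.40 and -1.23, and hepatocyte markers set the same 2 libraries apart.

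Among the general endothelial genes, several junction and surface genes varied less than Stab2, and of these Pecam1 varied least. Pecam1 (ENSMUSG00000020717, chromosome 11, 106654217 to 106750628), the adhesion molecule CD31 of endothelial cells, platelets and leukocytes, measured 38.5, 44.1 and 42.3 CPM in controls against 35.6, 33.7 and 33.8 CPM. Every treated tumor was below every control, but by little (log2 fold change -0.28, SE 0.17, edgeR adjusted p 0.408), and relative to the median of all genes the fold change was -0.30 with TMM and -0.24 with library totals. Pecam1 counts were 877, 520 and 393 in controls against 720, 687 and 650 in treated tumors, so that this order rests on TMM scaling. Cdh5, the cadherin of endothelial junctions, measured 37.7, 51.2 and 53.3 CPM in controls against 30.8, 34.7 and 22.4 CPM, also without overlap (log2 fold change -0.69, SE 0.25, edgeR adjusted p 0.254). Without control 5 the edgeR adjusted p of Cdh5 was 0.0215. Its counts were 860, 604 and 495 in controls against 623, 708 and 430 in treated tumors, so that its separation also rests on TMM scaling. Esam, an adhesion molecule of tight junctions, overlapped between groups, with 8.47, 13.9 and 15.3 CPM against 9.19, 11.1 and 7.75 CPM. Cldn5, a claudin of endothelial tight junctions, overlapped as well, with 4.26, 6.53 and 6.67 CPM against 3.02, 3.77 and 4.73 CPM. The fold changes of Esam and Cldn5 were -0.42 and -0.59, and relative to the median of all genes they were -0.30 and -0.49 with library totals. Emcn, a sialomucin of capillaries and veins, had another order, with 16.7, 7.89 and 11.2 CPM in controls against 16.7, 12.3 and 13.4 CPM, so that controls 6 and 7 were lowest (log2 fold change 0.24, SE 0.33, edgeR adjusted p 0.678).

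Receptor and phosphatase genes of the same list followed the sinusoidal markers more closely. Ptprb (chromosome 10, 116275523 to 116389535), the endothelial phosphatase that dampens signaling of Tek, measured 12.8, 145 and 173 CPM in controls against 14.8, 12.3 and 8.69 CPM. The high libraries were controls 6 and 7, and control 5 lay within the range of the treated tumors (log2 fold change -3.21, SE 0.91, adjusted p 0.247 in edgeR and 0.00582 in DESeq2). Kdr (ENSMUSG00000062960, chromosome 5, 75932827 to 75978458), the main VEGF receptor of blood vessels, measured 18.7, 81.7 and 105 CPM in controls against 16.1, 12.7 and 12.6 CPM. Its groups did not overlap, with 68.6 ± 44.8 CPM (SD, n = 3) against 13.8 ± 1.99 CPM (SD, n = 3) (log2 fold change -2.31, SE 0.62, adjusted p 0.247 in edgeR and 0.00968 in DESeq2). Tek, the angiopoietin receptor, measured 4.69, 20.4 and 25.2 CPM in controls against 4.10, 2.99 and 2.60 CPM. Tie1, its orphan partner, measured 9.87, 18.7 and 19.0 CPM in controls against 8.21, 7.01 and 6.09 CPM. For Tek and Tie1 every treated tumor was again below every control, with fold changes of -2.37 and -1.16, adjusted p of 0.247 and 0.247 in edgeR, and 0.00919 and 0.0346 in DESeq2. Without control 5, edgeR called all of Ptprb, Kdr, Tek and Tie1 lower, at -3.71, -2.73, -2.78 and -1.38, with adjusted p of 6.60e-05, 8.19e-05, 0.000266 and 0.00286.

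Flt1, the VEGF receptor that also acts as a decoy, did not share this order. It measured 73.7, 67.1 and 31.0 CPM in controls against 81.2, 121 and 59.8 CPM, with control 7 lowest (log2 fold change 0.61, SE 0.42, edgeR adjusted p 0.455). Kdr exceeded Flt1 per kb of exon in controls 6 and 7, where Kdr measured 9.04 and 11.7 and Flt1 4.97 and 2.30 CPM per kb. In control 5 the order was the other way, with 2.07 for Kdr and 5.46 CPM per kb for Flt1. The treated tumors had the order of control 5, with Kdr between 1.39 and 1.78 and Flt1 between 4.43 and 8.93 CPM per kb.

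**Figure D3:**
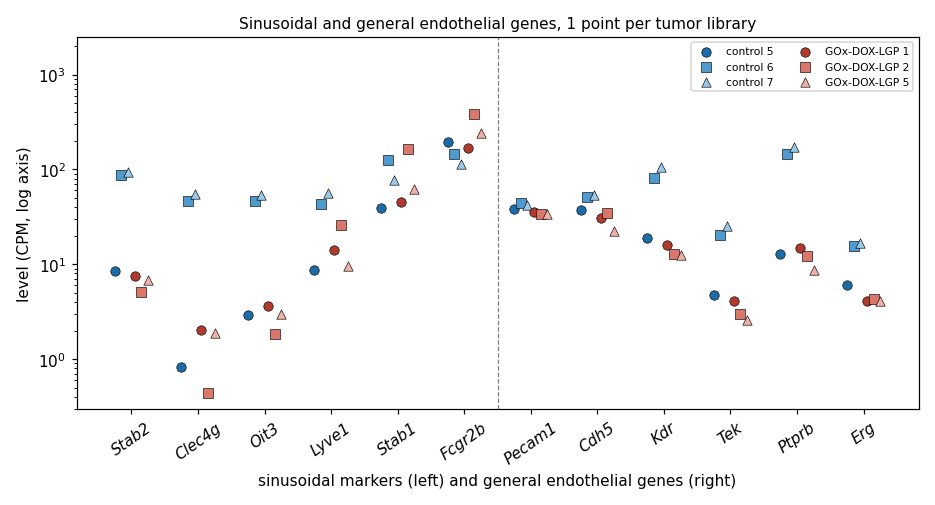
Levels of sinusoidal markers and general endothelial genes in CPM on a log axis, with 1 point per library. For Stab2, Clec4g, Oit3 and Kdr, controls 6 and 7 lie above the other 4 libraries, while Pecam1 stays between 33.7 and 44.1 CPM.

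Eng, a coreceptor of the TGF-β and BMP family, measured 37.2, 86.0 and 93.0 CPM in controls against 34.4, 48.1 and 22.2 CPM. Egfl7, a secreted matrix protein that hosts a microRNA in an intron, measured 9.65, 19.5 and 16.8 CPM against 6.97, 5.05 and 8.79 CPM, without overlap, and 4.94% of its stretches of 50 bases occur in other genes. Robo4, a receptor that stabilizes vessels, measured 4.96, 16.7 and 19.2 CPM against 6.23, 3.87 and 6.14 CPM. Controls 6 and 7 were highest for all of Eng, Egfl7 and Robo4, whose fold changes were -1.05, -1.14 and -1.32, with edgeR adjusted p of 0.296, 0.247 and 0.286. Without control 5 they were -1.33, -1.36 and -1.69, and the edgeR adjusted p were 0.0106, 0.00748 and 0.00284.

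The endothelial transcription factors differed in how far they followed this order. Erg, the ETS factor that maintains endothelial identity, measured 6.01, 15.6 and 16.8 CPM in controls against 4.05, 4.26 and 4.06 CPM. The treated tumors were tightly grouped at 4.12 ± 0.119 CPM (SD, n = 3), below every control (log2 fold change -1.63, SE 0.43, adjusted p 0.247 in edgeR and 0.0134 in DESeq2). Sox17, a SOXF factor of arteries, was low at 0.965, 4.32 and 2.26 CPM in controls against 0.544, 1.08 and 0.728 CPM, from 22, 51 and 21 counts in controls and 11, 22 and 14 counts in treated tumors. Its fold change was -1.66 (SE 0.63, edgeR adjusted p 0.263), and genes on the other strand overlap 804 bases of its exons, whose reads cannot be separated without known strand in the counting. Sox18, a related factor of vessels and lymphatics, measured 3.03, 5.0 and 3.34 CPM against 2.82, 2.74 and 2.03 CPM, without overlap (log2 fold change -0.58, SE 0.34, edgeR adjusted p 0.395). Without control 5, edgeR called Erg and Sox17 lower, at -1.94 and -2.04 (adjusted p 0.000607 and 0.0126).

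As a list, the 16 general endothelial genes had a median fold change of -1.09, with 14 below 0, and the 6 sinusoidal markers one of -2.20, with 4 below 0. The median of all genes tested was 0.02, and 0.19 with scaling by the upper quartile. Under library totals and the upper quartile, the median was -0.43 and -0.88 for the general list, and -1.37 and -1.96 for the sinusoidal list. Relative to the median of all genes, the general list lay at -0.93 and -1.07 and the sinusoidal list at -1.88 and -2.15. A change of scaling moves all genes by about the same amount, so these relative values cannot show how far the lists depend on it. With the hepatocyte markers as a covariate the medians were -0.44 and -0.081. Controls 6 and 7 were the 2 highest libraries for 14 of 16 general genes and for 4 of 6 sinusoidal markers.

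Among the ligands of the VEGF family, Pgf and Vegfc were higher in every treated tumor than in any control, and Vegfb was not. With Angpt1, they were the 3 of 36 genes in this position, a share close to the 8.87% of all genes. Pgf (chromosome 12, 85166635 to 85177790), placental growth factor, a ligand of Flt1, measured 9.65, 2.88 and 1.08 CPM in controls 5, 6 and 7 against 10.7, 13.4 and 12 CPM. The groups did not overlap, although control 5 came close to the treated tumors (log2 fold change 1.38, SE 0.74, edgeR adjusted p 0.365). Without control 5 the fold change was 2.60, with an edgeR adjusted p of 0.00277. Vegfc, the ligand of Flt4, measured 18.0, 16.4 and 7.96 CPM against 22.1, 20.4 and 20.6 CPM, again without overlap (log2 fold change 0.57, SE 0.34, edgeR adjusted p 0.395). Vegfb, which binds Flt1, measured 19.0, 27.5 and 33.0 CPM against 27.8, 21.7 and 32.8 CPM, with a fold change of 0.052 (SE 0.29).

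Angpt1, the agonist of Tek made mainly by perivascular cells, measured 5.26, 4.83 and 3.12 CPM in controls against 6.13, 6.86 and 7.44 CPM. Every treated tumor was above every control (log2 fold change 0.62, SE 0.31, edgeR adjusted p 0.341), and genes on the other strand overlap 737 bases of its exons. Angpt2, the context-dependent antagonist stored by endothelial cells, overlapped between the groups at 12.2, 10.2 and 4.30 CPM against 14.1, 9.26 and 11.7 CPM (log2 fold change 0.39, SE 0.43, edgeR adjusted p 0.608).

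Receptors and coreceptors differed in their order. Flt4 (chromosome 11, 49609263 to 49652739) measured 13.8, 48.7 and 50.5 CPM in controls against 9.74, 11.6 and 6.71 CPM, without overlap (log2 fold change -2.01, SE 0.54, adjusted p 0.247 in edgeR and 0.0118 in DESeq2). Without control 5 its fold change was -2.37 (edgeR adjusted p 0.000370). The neuropilins, coreceptors of VEGF and semaphorins, had opposite orders. Nrp1 measured 45.5, 132 and 162 CPM in controls against 37.6, 83.6 and 28.4 CPM, with controls 6 and 7 highest (log2 fold change -1.19, SE 0.61, edgeR adjusted p 0.350). Nrp2 measured 437, 168 and 77.0 CPM in controls against 402, 423 and 386 CPM, with controls 6 and 7 lowest and control 5 highest (log2 fold change 0.83, SE 0.63, edgeR adjusted p 0.485). Without control 5, the fold change was -1.53 for Nrp1 (edgeR adjusted p 0.0230) and 1.75 for Nrp2 (edgeR adjusted p 0.00650). Per kb of exon Nrp2 had the highest median level of the 37 genes at 33.3 CPM over the libraries, followed by Fcgr2b at 31.4 CPM and Vegfb at 17.2 CPM.

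Dll4, the Notch ligand of endothelial tip cells, differed by a similar amount with and without control 5. It measured 6.93, 9.41 and 7.86 CPM in controls against 4.6, 3.53 and 3.80 CPM, or 8.07 ± 1.25 CPM (SD, n = 3) against 3.97 ± 0.556 CPM (SD, n = 3). The groups did not overlap (log2 fold change -1.02, SE 0.28, adjusted p 0.247 in edgeR and 0.00745 in DESeq2), the fold change lay between -1.11 and -0.90 when each library was left out, and it was -0.86 with the hepatocyte covariate. Without control 5 its edgeR adjusted p was 0.0181. The counts of Dll4 were 158, 111 and 73 in controls against 93, 72 and 73 in treated tumors. Control 7 thus stood above all treated tumors only after TMM scaling. With library totals the fold change of Dll4 was -0.46 (edgeR unadjusted p 0.278), or -0.97 relative to the median of all genes. Notch1, a receptor of Dll4, overlapped between the groups at 22.6, 28.9 and 19.6 CPM against 16.4, 25.3 and 15.2 CPM (log2 fold change -0.32, SE 0.29, edgeR adjusted p 0.541), and genes on the other strand overlap 1482 bases of its exons. Plvap, the protein of fenestral diaphragms that is characteristic of tumor vessels, measured 33.6, 32.5 and 34.5 CPM in controls against 29.6, 21.4 and 22.7 CPM. The controls differed by little, at 33.5 ± 1.03 CPM (SD, n = 3), and all treated tumors were lower (log2 fold change -0.45, SE 0.20, edgeR adjusted p 0.312), and relative to the median of all genes the fold change was -0.47 with TMM and -0.43 with library totals. Plvap counts were 766, 383 and 321 in controls against 598, 436 and 436 in treated tumors, so that this order rests on TMM scaling.

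**Figure D4:**
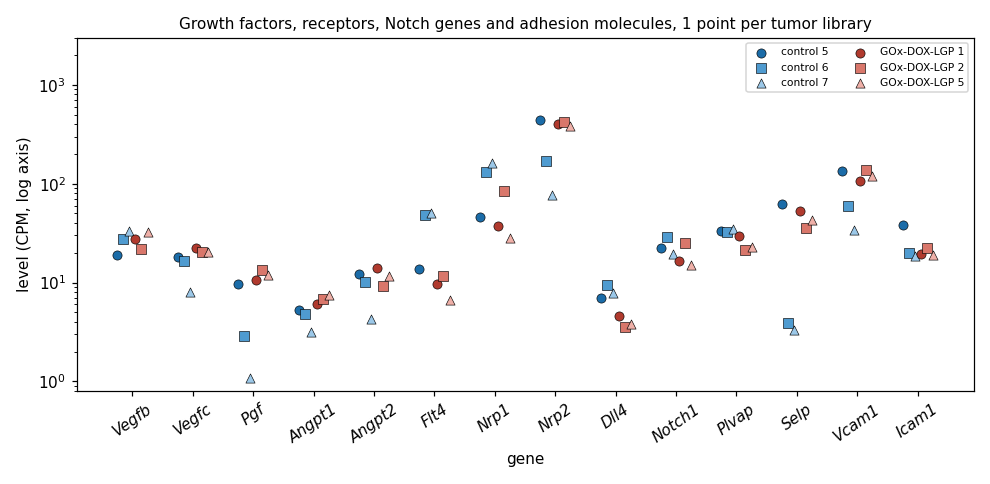
Levels of growth factors, receptors, Notch genes, Plvap and adhesion molecules in CPM on a log axis, with 1 point per library. Controls 6 and 7 lie lowest for Pgf, Nrp2 and Selp and highest for Flt4 and Nrp1, and all 3 treated tumors lie below the controls for Dll4.

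Of the inducible adhesion molecules, Selp differed most between libraries. Selp (ENSMUSG00000026580, chromosome 1, 164115264 to 164150026) encodes P-selectin, which endothelial cells and platelets store and present to rolling leukocytes. It measured 62.9 CPM in control 5 against 3.90 and 3.34 CPM in controls 6 and 7, and treated tumors had 52.9, 35.8 and 42.7 CPM. Control 5 was thus above all treated tumors, with 1433 counts against 46 and 31 in the other controls. Its difference between groups was within their spread (log2 fold change 0.90, SE 1.13, edgeR adjusted p 0.648), and without control 5 it was 3.62 with an edgeR adjusted p of 8.13e-05. Genes on the other strand overlap 624 bases of its exons. The sum of 4 platelet markers had another order, with 6.23, 19.0 and 11.7 CPM in controls 5, 6 and 7 and from 13.7 to 37.0 CPM in treated tumors. Of its members, Pf4 measured 2.90, 12.3 and 5.27 CPM in controls against 10.1, 30.9 and 12.7 CPM, Ppbp 1.10, 0.509 and 0.323 CPM against 0.692, 0.686 and 1.35 CPM, and Itga2b 2.24, 6.11 and 6.03 CPM against 2.97, 5.44 and 3.90 CPM, while Gp9 had 0 counts in 3 libraries. Controls 6 and 7 were thus the lowest for Ppbp, as for Selp, and the highest for Itga2b. The order for Ppbp rested on few counts, with 25, 6 and 3 in controls and 14, 14 and 26 in treated tumors. The part of platelets in the level of Selp was not tested.

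Vcam1, the ligand of integrin α4β1 on leukocytes, measured 135, 60.1 and 34.2 CPM in controls against 106, 137 and 120 CPM (log2 fold change 0.67, SE 0.50, edgeR adjusted p 0.485). Its lowest levels were those of controls 6 and 7, and without control 5 the fold change was 1.39 (edgeR adjusted p 0.00612). Icam1, the ligand of leukocyte β2 integrins, was highest in control 5 at 38.1 CPM and lay between 18.5 and 22.3 CPM in the other 5 libraries. Its fold change was -0.32 with all libraries and 0.12 without control 5. Sele, E-selectin, did not pass the filter, with 10, 6 and 2 counts in controls and 10, 5 and 7 counts in treated tumors, or 0.215 to 0.509 CPM, where 3 counts correspond to between 0.132 and 0.323 CPM. No difference in Sele was detectable at this depth.

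**Figure D5:**
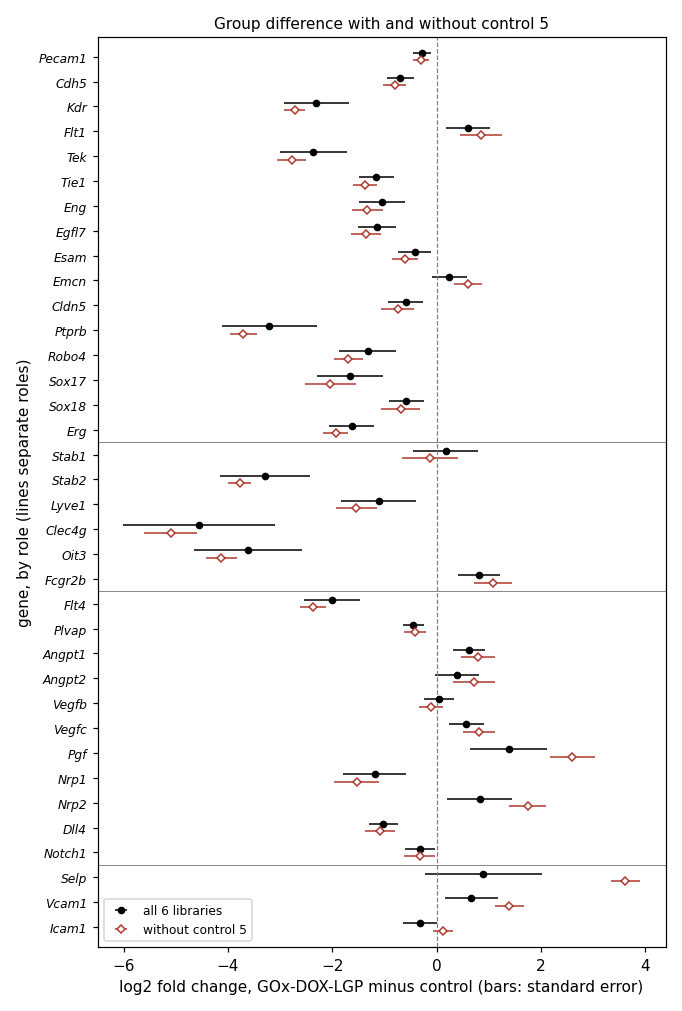
Log2 fold change of each of the 36 genes tested, GOx-DOX-LGP minus control, from edgeR with all 6 libraries (filled circles) and without control 5 (open diamonds), with bars for standard errors. The circle of Selp is at 0.90 and its diamond at 3.62, while both lie close together for Dll4.

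Other vascular genes were read from lists that do not include the 37 genes. Of 18 other endothelial genes, 0 had an adjusted p under 0.05 in edgeR (10 lower and 0 higher at an unadjusted p under 0.05) and 6 were lower in DESeq2, and their median fold change was -1.0. Of all genes, 14.6% were lower and 2.87% higher at an unadjusted p under 0.05 in edgeR and 9.54% lower in DESeq2, shares that hold for every list that follows. Clec14a, an endothelial lectin, measured 4.69, 37.8 and 38.8 CPM in controls against 5.49, 4.85 and 3.54 CPM. S1pr1, the sphingosine 1-phosphate receptor that stabilizes vessels, measured 13.6, 99.7 and 141 CPM in controls against 15.9, 17.3 and 13.8 CPM. For both genes controls 6 and 7 were far above the other 4 libraries. Of 11 other sinusoidal genes, 9 were tested, with 0 adjusted p under 0.05 in edgeR (6 lower and 0 higher at an unadjusted p under 0.05), 6 lower in DESeq2 and a median of -2.08. Fold changes were below 0 for 7 of them and above 0 for 2. Controls 6 and 7 were the 2 highest libraries for 6 of the 9 and the 2 lowest for 1. Gpr182, a chemokine scavenger of sinusoids, measured 1.58, 34.9 and 48.6 CPM in controls against 2.67, 1.76 and 1.46 CPM. F8, coagulation factor VIII, which the liver makes mainly in these cells, measured 2.54, 24.6 and 28.2 CPM against 1.63, 1.08 and 1.56 CPM, and its groups did not overlap.

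Genes of tip cells and sprouting mostly had fold changes above 0. Of 10 tested, 9 were above 0, 0 had an adjusted p under 0.05 in edgeR or in DESeq2, 2 were higher at an unadjusted p under 0.05 in edgeR, and the median was 0.70. Controls 6 and 7 were the 2 lowest libraries for 8 of the 10 and the 2 highest for 1, against 35.4% and 32.9% of all genes. The groups did not overlap for 4 of the 10, all higher after treatment, against 8.87% of all genes. Without control 5, edgeR called 7 of 10 higher, where it called 22.2% of all genes higher. Adm, the vasodilator adrenomedullin, which hypoxia can induce, measured 9.26, 2.20 and 1.18 CPM in controls against 16.4, 25.8 and 14.9 CPM, without overlap (log2 fold change 2.15, SE 0.77, edgeR adjusted p 0.252). Apln, the ligand apelin of sprouting vessels, measured 6.76, 4.49 and 1.94 CPM against 7.36, 21.7 and 9.31 CPM, also without overlap (log2 fold change 1.52, SE 0.61, edgeR adjusted p 0.278).

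Of 9 arterial, venous and Notch genes tested, 0 had an adjusted p under 0.05 in edgeR or DESeq2, 1 was lower at an unadjusted p under 0.05 in edgeR, and relative to all genes the median was -0.41 with TMM and -0.28 with library totals. The connexin genes Gja5 and Gja4 had fold changes of -1.54 (SE 0.61) and -0.97 (SE 0.47). Of 5 lymphatic genes, 0 passed in edgeR (4 lower and 1 higher at an unadjusted p under 0.05), and 3 were lower and 1 was higher in DESeq2. Prox1, a factor of lymphatic endothelium that hepatocytes express as well, measured 4.30, 159 and 301 CPM in controls against 7.91, 3.3 and 2.55 CPM, with controls 6 and 7 highest as for the hepatocyte markers. Mmrn1, a secreted glycoprotein of lymphatic endothelium and platelets, measured 2.72, 6.53 and 3.01 CPM against 0.544, 0.882 and 0.104 CPM, so that every treated tumor was below every control (log2 fold change -2.98, SE 0.77, adjusted p 0.247 in edgeR and 0.00269 in DESeq2). Of 9 pericyte and smooth muscle genes, 0 passed in edgeR (4 lower and 0 higher at an unadjusted p under 0.05) and 2 were lower in DESeq2, and relative to all genes the median was -0.15 with TMM and -0.31 with library totals. Rgs5, a pericyte gene, measured 65.2, 210 and 253 CPM in controls against 39.5, 33.7 and 22.0 CPM, without overlap (log2 fold change -2.47, SE 0.56, adjusted p 0.247 in edgeR and 0.00163 in DESeq2), and Myh11, the myosin of smooth muscle, had a fold change of -1.74 (SE 0.58).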

How the data were processed

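The 6 libraries were assigned to groups and numbers by their titles, which match the columns of both tables. The raw counts per gene were deposited by the authors without normalization or pooling. A further table of the authors holds signal values, in which every count was divided by a scaling factor of its library, and it served here for gene symbols only. The methods of the paper name TopHat and HTSeq for alignment and counting, whereas the submitters' processing notes list HISAT2 2.1.0 and featureCounts 2.0.0. The genome build, the annotation and the use of strand in counting are not given in the sources used here. Such choices can move reads between overlapping genes. Exons of a gene on the other strand overlap 13 of the 37 genes. Positions are from GENCODE M21 on GRCm38, and the length of a gene is the union of its exons.

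Counts were filtered with filterByExpr, scaled by TMM, and the quasi-likelihood F-test was run in edgeR 4.0.16 (R 4.3.3) for 15374 genes over all 6 libraries, with Benjamini-Hochberg adjustment over all of them and a threshold of 0.05. Standard errors are the absolute log2 fold change divided by the root of F. Log2 CPM used a prior count of 2. The alternatives were DESeq2 1.42.0 on the same genes (14385 with an adjusted p after its independent filtering), limma 3.58.1 voom with sample quality weights, other scalings and filters, a hepatocyte covariate, and leaving out each library. The fits were tested on simulated data. The genes and lists were chosen with earlier results of these data known. By the rule for named genes, all 37 were named, and from each other list the 2 largest absolute log2 fold changes. A further marker list is not reported here. Figures were drawn with matplotlib 3.10.9. The labels do not say whether libraries came from separate mice, so p-values measure the spread between libraries. Floors of 3 counts cover counting error only.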

Additional observations from a re-analysis of the deposited data

How the results depend on the processing

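No paired analysis was possible because the groups share only the number 5. Of the 37 genes, 0 were called in edgeR with DESeq2 size factors, library totals, the upper quartile, no filter, or the hepatocyte covariate. DESeq2 called 10, and limma voom with sample quality weights called 27 (9254 of all 15374 genes). Leaving out each library gave between 0 and 22, where 22 is the fit without control 5 (7745 of the 16249 genes tested in it). Of the other vascular genes 0 were called, against 18 in DESeq2 (1516 of all genes), 42 in limma voom and between 0 and 43 when each library was left out, again with 43 without control 5. In the fits that leave control 5 out, 2 control libraries remain. The difference of sinusoidal markers and general genes, -0.51 in log2, was -1.98 for Stab2, Clec4g and Oit3 and 0.96 for Stab1, Lyve1 and Fcgr2b, and it lay between -1.07 (without control 5) and -0.22 when each library was left out. It was -0.24 without control 6 and -0.22 without control 7. With library totals, the log2 fold change turned to 0.27 for Pecam1, 0.21 for Esam, 0.015 for Cldn5, 0.076 for Plvap, 0.19 for Notch1 and 0.045 for Icam1. The median of all genes moved to 0.51 under that scaling, and all 6 lay below it. With the hepatocyte covariate it turned to -0.0095 for Emcn and 0.38 for Lyve1. With limma voom it turned to -1.04 for Stab1 and -0.0086 for Vegfb. When each library was left out, it ranged from -0.56 (without GOx-DOX-LGP tumor 2) to 0.64 for Stab1, with -0.12 without control 5, and from -0.11 (without control 5) to 0.24 for Vegfb, with -0.047 without GOx-DOX-LGP tumor 5. For Icam1 it was 0.12 without control 5. The cause was not tested. With all 6 libraries, adjusted p-values from edgeR did not fall below 0.247. Genes such as Sele and Sox17 are limited by their counts.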
